A study of Rattus norvegicus with 6 samples.

Results

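The miR-15/16 family and its X-linked relatives were followed in plasma exosomes of rats: rno-miR-15b-5p, rno-miR-16-5p, rno-miR-195-5p, rno-miR-497-5p, rno-miR-322-5p and rno-miR-503-5p. These 6 were taken by name, as members of the extended miR-15/16 seed family, from a table of 763 mature rat miRNAs, and all 6 had counts. Exosomes were pelleted from the plasma of male Sprague-Dawley rats aged 7 to 8 weeks. Rats of the R-exo group had both hind limbs bound with rubber bands under anesthesia for 4 cycles of remote ischemic pre-conditioning (RIPC), each with 5 min of ischemia and 5 min of reperfusion, and rats of the C-exo group had no RIPC. Blood was drawn from the abdominal aorta under anesthesia in both groups, 48 h later, which is the late phase of RIPC. The counts hold no measure that tells exosomes from other carriers of plasma miRNA. Small RNA libraries were sequenced from 3 RNA samples in each group. The sources do not say whether each sample came from a single rat, so the p-values measure the spread between these samples, which may be partly technical.

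A miRNA guides the Argonaute protein to matching target transcripts, mainly through its seed, bases 2 to 8 from the 5′ end, and the target is repressed. Members of the miR-15/16 family share a seed and are best known as brakes on the cell cycle and on survival proteins, with cyclins and Bcl2 among their classic targets. In the heart, miR-195 is known for limiting the division of cardiomyocytes after birth. miR-16 is abundant in blood cells and is often measured in plasma, where red cells are a known source. Rat miR-322 corresponds to human miR-424 and is made together with miR-503 from a cluster on the X chromosome.

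The mature sequences, printed to show what the members share and where they part, were taken from RefSeq (build GRCr8), with bases 2 to 8 in capitals. All 6 members had an entry.
rno-miR-15b-5p: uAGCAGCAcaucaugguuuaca
rno-miR-16-5p: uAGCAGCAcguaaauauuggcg
rno-miR-195-5p: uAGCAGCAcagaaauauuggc
rno-miR-497-5p: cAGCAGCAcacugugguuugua
rno-miR-322-5p: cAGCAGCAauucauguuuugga
rno-miR-503-5p: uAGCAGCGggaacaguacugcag
The first 5 have the same bases 2 to 8. rno-miR-503-5p departs at the last base of the seed. Beyond the seed the closest pair was rno-miR-16-5p and rno-miR-195-5p, identical at 19 of 21 compared positions and different at G10A and U11G, with the base of rno-miR-16-5p first and counting positions from 1 at the 5′ terminus. How the authors assigned reads with mismatches is not given in the sources used here, so the split of reads between these 2 miRNAs is uncertain. For every 100 reads of rno-miR-16-5p a library held between 0.498 and 2.44 reads of rno-miR-195-5p. In the same annotation the genes Mir15b and Mir16 are neighbours on chromosome 2 within the span of Smc4, a condensin subunit. Mir497 and Mir195 are neighbours on chromosome 10, and Mir322 and Mir503 are neighbours on chromosome X.

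The libraries held between 5484209 and 7531737 reads on miRNAs, and 3 reads, below which a value is imprecise, were worth between 0.398 and 0.547 counts per 1000000 reads (CPM) by library size alone. CPM below are counts scaled to library size with TMM factors. The family was a small part of the cargo. Its 6 members together took 0.0127% and 0.0194% of the reads in C-exo replicates 1 and 2, 0.0878% in C-exo replicate 3, and 0.0643%, 0.112% and 0.0827% in R-exo replicates 1, 2 and 3. As summed CPM this was 424 ± 448 in C-exo and 829 ± 286 in R-exo (SD, n = 3 each). The mean log2 sum was higher in R-exo by 1.43, but the groups overlapped (exact two-sided permutation p = 0.3, where 0.1 is the smallest that 3 libraries against 3 allow). The difference was 0.97 without C-exo replicate 1 and 2.27 without C-exo replicate 3. C-exo replicate 3 lay with the R-exo libraries, above R-exo replicates 1 and 3. In such bulk material, fewer vesicles from a cell type and less RNA per vesicle cannot be told apart.

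The mature members are 21 to 23 bases long, so their counts were set side by side with no length correction. Every count of rno-miR-322-5p and rno-miR-503-5p was even, which held for no other member, so their reads may have been counted more than once. The sources used here do not settle this. Levels of this pair beside the other members, and the sums and shares of the family, are therefore uncertain. By mean CPM over the 6 libraries the order was rno-miR-16-5p at 452 CPM, rno-miR-503-5p at 118, rno-miR-15b-5p at 24.2, rno-miR-497-5p at 15.2, rno-miR-195-5p at 8.66 and rno-miR-322-5p at 8.22. The first 2 places held in every library, and rno-miR-503-5p exceeded rno-miR-15b-5p in 6 of 6. rno-miR-15b-5p was above rno-miR-497-5p in 5 of 6 libraries. rno-miR-497-5p exceeded rno-miR-195-5p in 3 of 6 and rno-miR-195-5p exceeded rno-miR-322-5p in 3 of 6, so the place of rno-miR-195-5p among the lowest 3 is not settled. rno-miR-16-5p made up between 42.1% and 78.2% of the reads of the family. Even so, it ranked between 73 and 180 by count among the 763 miRNAs of a library.

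**Figure D1:**
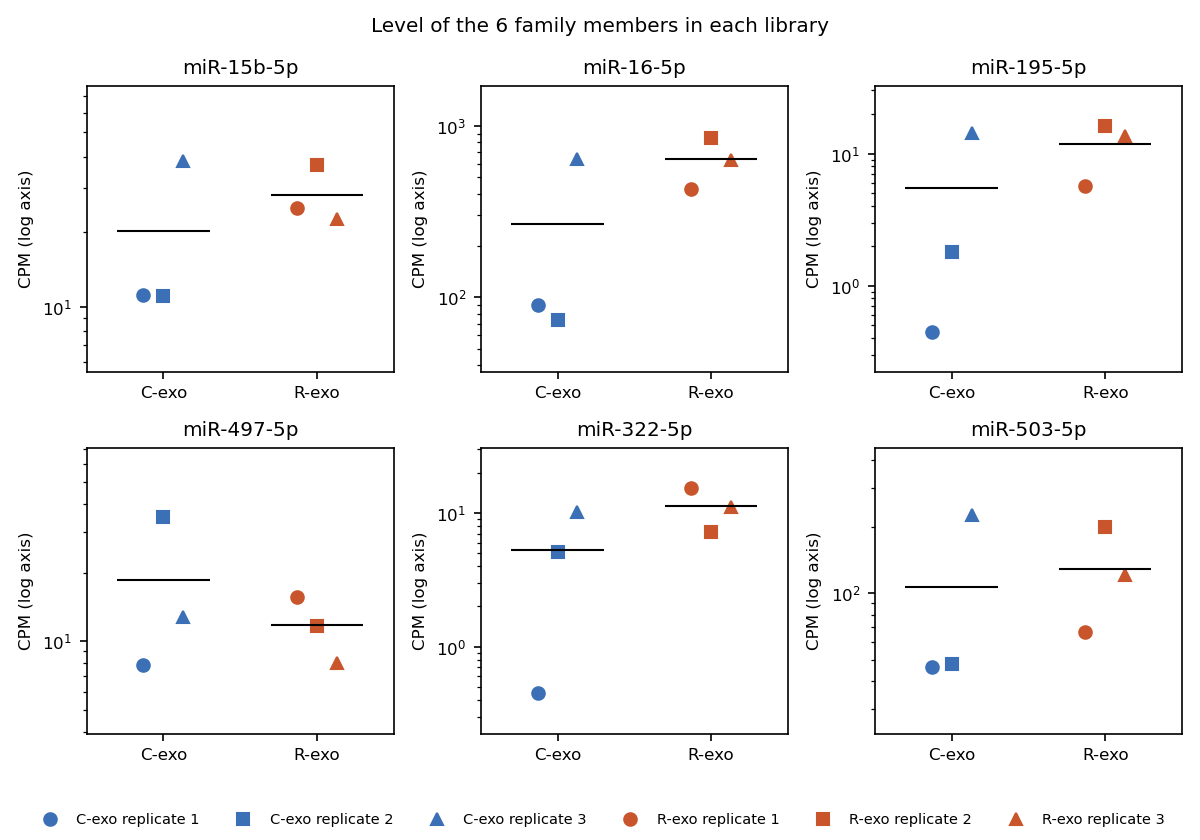
TMM-normalized CPM of each member (log axis, with its own range in each panel) in the 3 C-exo and 3 R-exo libraries, with the group mean as a line. For every member but rno-miR-497-5p, C-exo replicates 1 and 2 lie below the other 4 libraries, and in each of these panels C-exo replicate 3 lies within or above the R-exo range.

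The comparison of R-exo with C-exo asks which exosomal miRNAs changed at the late phase of RIPC. With all 6 libraries no member passed an adjusted p under 0.05 in edgeR's quasi-likelihood test, and none had an unadjusted p under 0.05. The share of all 404 tested miRNAs that passed the adjusted threshold was 0%. None of the 6 members met the criterion of the study, more than a 2-fold change at an unadjusted p under 0.05, which 9.41% of all tested miRNAs met. DESeq2, as edgeR, gave 0 members under either rule, while limma-voom gave 1 member (rno-miR-16-5p) under the criterion of the study and 0 by adjusted p. That criterion was met by 12.1% of all tested miRNAs in DESeq2 and by 12.1% in limma-voom. The groups overlapped for every member, and over all tested miRNAs 12.9% had no overlap. The log2 fold change was above 0 for 5 of the 6 members, with a median of 0.77, against 197 of 404 and a median of -0.05 over all tested miRNAs.

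rno-miR-16-5p, the most abundant member, had 90.1, 73.5 and 638 CPM in C-exo replicates 1, 2 and 3 and 428, 854 and 629 CPM in R-exo replicates 1, 2 and 3. C-exo replicates 1 and 2 were far below every R-exo library, and C-exo replicate 3 was between R-exo replicates 3 and 2. The group values were 267 ± 321 CPM in C-exo and 637 ± 213 CPM after RIPC (SD, n = 3 each). Its log2 fold change was 1.25 ± 0.80 (SE), with an adjusted p of 0.51 by the quasi-likelihood test of edgeR, and the exact permutation p was 0.3. These values rest on between 402 and 5951 reads a library, so counting error is small beside the spread within C-exo.

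rno-miR-15b-5p, whose gene is listed next to Mir16 on chromosome 2, repeated this picture at a lower level. It had 11.2, 11.01 and 38.4 CPM in the C-exo libraries, against 24.9, 37.0 and 22.6 CPM in the R-exo libraries. The highest value of all was that of C-exo replicate 3, and the lowest were those of C-exo replicates 1 and 2. For this member the log2 fold change was 0.48 ± 0.58 (SE, adjusted p of 0.70 by that edgeR test), and ranged from 0.18 to 1.35 with single libraries left out.

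rno-miR-195-5p, the close relative of miR-16 by sequence, had 0.448, 1.79 and 14.2 CPM in the C-exo libraries, against 5.66, 16.2 and 13.6 CPM in the R-exo libraries. In C-exo replicate 1 this was 2 reads, under the limit of 3. Only C-exo replicate 3 reached the R-exo range, and it exceeded R-exo replicates 1 and 3. The log2 fold change was 1.09 ± 0.99 (SE, adjusted p of 0.59 by that edgeR test), and ranged from 0.58 to 3.30 with single libraries left out.

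rno-miR-497-5p is made from the stem-loop next to that of miR-195, and it did not follow it. It had 7.84, 35.2 and 12.8 CPM in the C-exo libraries, against 15.6, 11.6 and 8.05 CPM in the R-exo libraries. C-exo replicate 2 was the highest library and C-exo replicate 1 the lowest, with all 3 R-exo libraries between them. The log2 fold change was -0.67 ± 0.62 (SE, adjusted p of 0.60 by that edgeR test), and its sign turned to 0.23 without C-exo replicate 2.

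rno-miR-322-5p had 0.448, 5.12 and 10.2 CPM in the C-exo libraries, against 15.3, 7.18 and 11.1 CPM in the R-exo libraries. C-exo replicate 1 again had a count of 2, and C-exo replicate 3 overlapped R-exo replicate 2. R-exo exceeded C-exo by a log2 fold change of 1.06 ± 0.83 (SE, adjusted p of 0.53 by that edgeR test), which was 0.53 without C-exo replicate 1.

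rno-miR-503-5p, the neighbour of miR-322 with the altered seed, had 46.2, 47.9 and 227 CPM in the C-exo libraries, against 67.0, 200 and 121 CPM in the R-exo libraries. C-exo replicate 3 was above every R-exo library, and C-exo replicates 1 and 2 were below every one. The group values were 107 ± 104 CPM and 129 ± 67.2 CPM (SD, n = 3 each). On the log2 scale the fold change was 0.27 ± 0.70 (SE, adjusted p of 0.86 by that edgeR test). Its sign changed in 3 of the fits with a library left out, at -0.09 without C-exo replicate 1, -0.04 without C-exo replicate 2 and -0.14 without R-exo replicate 2.

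For the members other than rno-miR-497-5p, the comparison changed most when C-exo replicate 3 was left out. Relative to the mean of C-exo replicates 1 and 2, C-exo replicate 3 held 7.80 times as much rno-miR-16-5p, 4.83 times as much rno-miR-503-5p and 3.46 times as much rno-miR-15b-5p, but 0.595 times as much rno-miR-497-5p. For rno-miR-195-5p and rno-miR-322-5p, with a count of 2 each in C-exo replicate 1, it held 7.94 and 2.0 times the level of C-exo replicate 2. Without this library, a fit of 2 control libraries against 3, edgeR's quasi-likelihood test called 132 of 422 tested miRNAs at an adjusted p under 0.05, 17.3% of them all being calls higher in R-exo. Of the 6 members 4 were then called higher in R-exo. The log2 fold changes were 2.97 ± 0.49 for rno-miR-16-5p (SE, adjusted p = 0.0031), 3.30 ± 0.74 for rno-miR-195-5p (SE, adjusted p = 0.0078), 1.47 ± 0.50 for rno-miR-503-5p (SE, adjusted p = 0.040) and 1.35 ± 0.46 for rno-miR-15b-5p (SE, adjusted p = 0.041). For rno-miR-322-5p it was 1.94 with an adjusted p of 0.061, and for rno-miR-497-5p it was -0.87 with an adjusted p of 0.23. The criterion of the study was met by 5 members, and by 43.1% of all miRNAs tested there. In the same 5 libraries 5 members had every R-exo library above both control libraries, as had 30.8% of all miRNAs tested there. Each of the other 5 libraries could be left out without any member being called. The labels mark C-exo replicate 3 as a control like the others and give no batch or date, and why it stands apart was not tested.

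miR-15a-5p, a relative outside the 6 that was named after its values were seen, had 4.48, 4.48 and 25.0 CPM in the C-exo libraries, against 15.02, 30.7 and 17.5 CPM in the R-exo libraries. It split the libraries as rno-miR-16-5p did, with C-exo replicates 1 and 2 lowest and C-exo replicate 3 among the R-exo libraries. Its log2 fold change was 0.89 ± 0.72 (SE, adjusted p of 0.54 by that edgeR test), and 2.24 without C-exo replicate 3 (adjusted p = 0.0093).

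**Figure D2:**
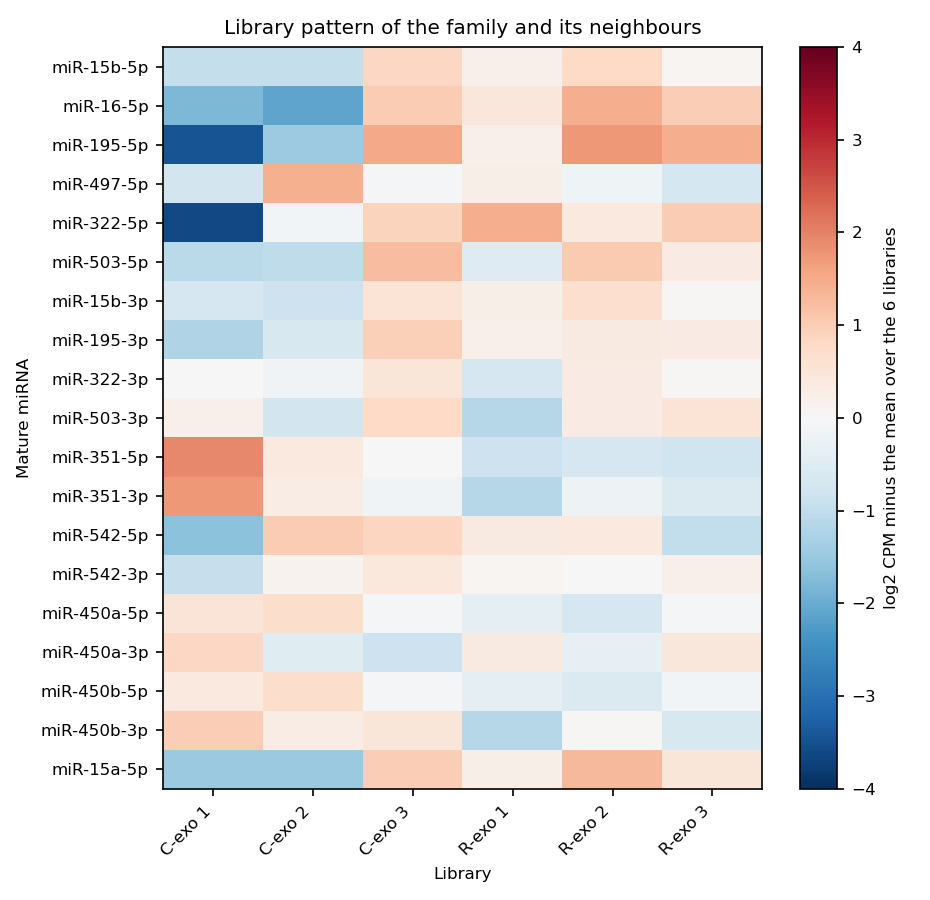
Heat map of log2 CPM minus the mean over the 6 libraries (colour scale from -4 to 4) for the members, their tested 3p arms, their X-linked cluster neighbours and miR-15a-5p, with libraries as columns. rno-miR-16-5p, rno-miR-195-5p, rno-miR-15b-5p, rno-miR-503-5p and miR-15a-5p are below their mean in C-exo replicates 1 and 2 and above it in C-exo replicate 3, whereas miR-351 of the X-linked cluster is highest in C-exo replicate 1.

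Over the 6 libraries the log2 CPM of rno-miR-16-5p had a Pearson r of 0.95 with rno-miR-15b-5p, 0.94 with rno-miR-195-5p, 0.88 with rno-miR-503-5p and 0.70 with rno-miR-322-5p, and -0.41 with rno-miR-497-5p. The gene neighbours on chromosome 10, rno-miR-195-5p and rno-miR-497-5p, had an r of -0.15, and those on chromosome X, rno-miR-322-5p and rno-miR-503-5p, had 0.53. These are descriptions of 6 points that share their libraries and scaling. Outside the family, the patterns most like that of rno-miR-16-5p were those of miR-200a-3p (r = 0.998), miR-26a-5p (0.993) and miR-32-5p (0.993). For rno-miR-15b-5p they were miR-376b-3p, its own 3p arm miR-15b-3p and miR-142-5p (0.992 to 0.993). For rno-miR-195-5p they were miR-374-5p, miR-27b-3p and miR-10a-3p (0.978 to 0.981), and for rno-miR-503-5p miR-455-3p, let-7c-2-3p and let-7a-1-3p (0.986 to 0.992). The r of let-7c-2-3p and of let-7a-1-3p was the same, so they may not be separate matches. rno-miR-322-5p was most like miR-3559-5p, miR-199a-3p and miR-148b-5p (0.935 to 0.948). The best match of rno-miR-497-5p, miR-338-5p, reached 0.91, followed by miR-199a-5p at 0.89 and miR-582-3p at 0.88.

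Ratios of read counts within a library do not depend on the scaling, and 12 were tested with exact two-sided permutation tests. The smallest p was 0.1, the least that the design allows, and 0.3 after Benjamini-Hochberg adjustment over the 12. For 2 of the 12 the groups did not overlap, and for 11 of the 12 without C-exo replicate 3. In the first of the 2, the log2 ratio of rno-miR-15b-5p to rno-miR-16-5p was -3.01, -2.74 and -4.05 in C-exo and -4.11, -4.53 and -4.80 in R-exo, lower in R-exo by 1.21 on average (exact permutation p = 0.1). Every R-exo library therefore had fewer reads of miR-15b for each read of miR-16 than any control library, but the gap between C-exo replicate 3 and R-exo replicate 1 was narrow, at -4.05 and -4.11. In the second, the summed reads of rno-miR-322-5p and rno-miR-503-5p relative to those of rno-miR-15b-5p and rno-miR-16-5p had log2 ratios of -1.12, -0.67 and -1.51 in C-exo and -2.46, -2.10 and -2.31 in R-exo, a mean difference of -1.19 (exact permutation p = 0.1). The X-linked pair thus took a smaller share beside the miR-15b/16 pair in R-exo than in C-exo in every library, although the adjusted p of both ratios was 0.3 (exact permutation test).

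Of the 12 ratios, that within the chromosome 10 pair varied most among the control libraries (SD 2.52, n = 3). The log2 ratio of rno-miR-497-5p to rno-miR-195-5p was 4.13, 4.30 and -0.15 in C-exo and 1.47, -0.48 and -0.76 in R-exo (exact permutation p = 0.2), where the value of C-exo replicate 1 rests on 2 reads of miR-195. C-exo replicates 1 and 2 were thus dominated by miR-497, whereas in C-exo replicate 3 and R-exo replicates 2 and 3 miR-195 was the higher of the pair. For rno-miR-503-5p to rno-miR-322-5p the mean log2 ratio was 4.79 ± 1.75 in C-exo and 3.46 ± 1.34 in R-exo (SD, n = 3 each, exact permutation p = 0.5). In C-exo replicate 1 this ratio rests on a count of 2 for miR-322, and the difference of -1.33 was -0.39 without that library and -2.12 without C-exo replicate 2.

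A stem-loop precursor gives a 5p and a 3p arm, and all 6 members are the 5p arms, which are the strands that carry the family seed. The 5p arm was not always the more abundant in these exosomes. The 3p arms that outnumbered their partners are printed with bases 2 to 8 in capitals to show that they carry other seeds.
miR-15b-3p: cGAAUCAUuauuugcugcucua
miR-195-3p: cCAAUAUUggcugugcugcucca
miR-322-3p: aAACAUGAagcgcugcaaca
miR-503-3p: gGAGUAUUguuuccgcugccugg
Of the stem-loops with more reads on the 3p arm, the most lopsided was that of miR-322, shown here with both arms in capitals, the 5p arm first.
mir-322: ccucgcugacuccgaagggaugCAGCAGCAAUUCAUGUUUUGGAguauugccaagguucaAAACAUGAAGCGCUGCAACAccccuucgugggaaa

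Of the reads on the miR-322 stem-loop, between 0.0279% and 1.46% fell on rno-miR-322-5p. The 3p arm miR-322-3p had 1607, 1486 and 2284 CPM in the C-exo libraries, against 1028, 2045 and 1684 CPM in the R-exo libraries, above the level of every one of the 6 members. In R-exo replicate 1, the library with the highest share, the counts were 124 for 5p and 8350 for 3p (1.46%, Wilson 95% interval 1.23% to 1.74%, which covers counting error only). In C-exo replicate 1 the counts were 2 for 5p and 7172 for 3p (Wilson 95% interval 0.00765% to 0.102%). Every count of both miR-322 arms and of both miR-503 arms was even. If their reads were counted more than once, these intervals are too narrow. The share on the 5p arm was also low for miR-195, from 1.69% to 17.5%, for miR-503, from 11.1% to 33.5%, and for miR-15b, from 27.0% to 35.5%. miR-16 and miR-497 lay at the other end, with at least 98.0% and 98.2% of the reads on the 5p arm. Across the 223 stem-loops with both arms listed and 60 or more reads in all, 55.2% had most of their reads on the 3p arm.

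**Figure D3:**
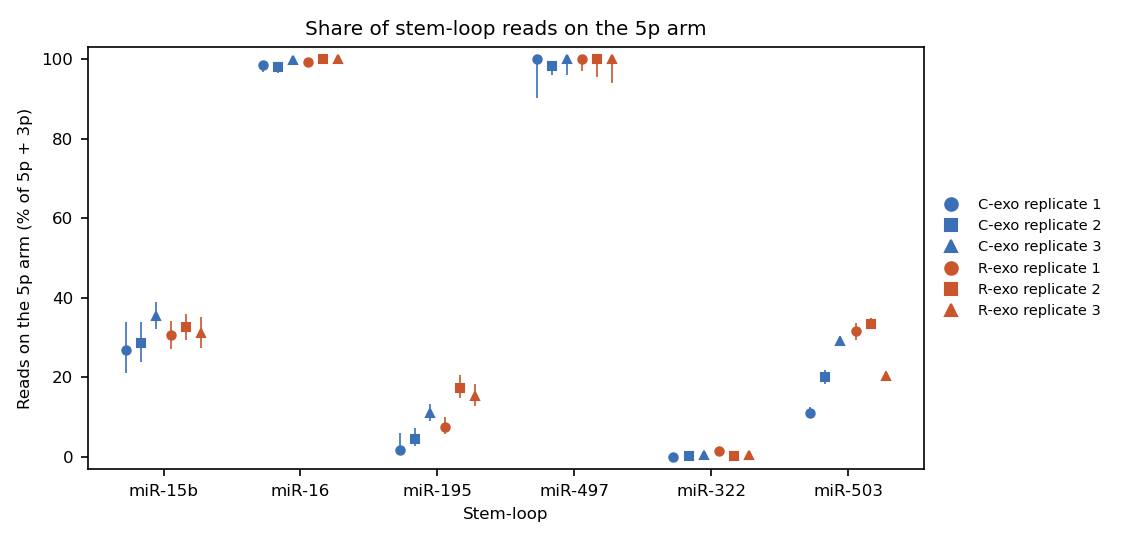
Share of the reads of each stem-loop that fell on the 5p arm, in percent of 5p plus 3p reads, in each of the 6 libraries (bars, Wilson 95% intervals of the counts). Where reads were counted more than once, these intervals are too narrow. miR-16 and miR-497 are at 98.0% or more in every library, and the other 4 stem-loops are at 35.5% or less.

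For miR-195 and miR-503 the balance of the arms varied between libraries, whereas miR-15b-5p and miR-15b-3p had a Pearson r of 0.992. The 5p share of miR-195 was 1.69%, 4.46% and 11.04% in C-exo and 7.67%, 17.5% and 15.4% in R-exo, with C-exo replicate 3 above R-exo replicate 1. For miR-503 it was 11.1%, 20.1% and 29.2% in C-exo and 31.6%, 33.5% and 20.4% in R-exo, again with overlap through C-exo replicate 3. The log2 ratio of 5p to 3p was higher in R-exo on average for all 5 stem-loops in which it could be taken, by 1.67 for miR-195, 2.11 for miR-322, 2.28 for miR-16, 0.73 for miR-503 and 0.08 for miR-15b. The exact permutation p was 0.2 for the first 4 of these and 0.8 for miR-15b, and the groups overlapped in all 5. The 3p counts of miR-16 were 3 to 30 a library, all multiples of 3, and may stand for fewer reads. Its ratio is therefore imprecise, as are those of miR-322 and miR-195 in C-exo replicate 1, with a count of 2 for each 5p arm. Without that library the difference was 0.83 for miR-322, 0.95 for miR-195 and 0.28 for miR-503, and it turned to -0.038 for miR-15b. Leaving out C-exo replicate 3 gave 2.84, 2.38 and 1.14 for these 3 and 0.25 for miR-15b. For miR-16 the difference ranged from 1.54 to 3.43 with single libraries left out, lowest without R-exo replicate 3 and highest without R-exo replicate 1.

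Of the 6 3p arms 4 passed the filter on low counts, and none had an unadjusted p under 0.05 in edgeR's quasi-likelihood test, DESeq2 or limma-voom. miR-15b-3p and miR-195-3p had log2 fold changes of 0.52 ± 0.49 (SE) and 0.29 ± 0.57 (SE), and 1.09 and 1.19 without C-exo replicate 3 (adjusted p = 0.066 and 0.048). miR-322-3p and miR-503-3p had -0.18 ± 0.45 (SE) and -0.13 ± 0.57 (SE), and 0.05 and 0.29 without C-exo replicate 3 (adjusted p = 0.94 and 0.69). miR-16-3p had a count of at most 30 in a library and miR-497-3p had 5 reads in C-exo replicate 2 and 0 in the other 5. Neither passed the filter with all 6 libraries, and without C-exo replicate 3 miR-16-3p had a log2 fold change of 0.21 (adjusted p = 0.89).

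The X-linked cluster that holds miR-322 and miR-503 also gives miR-351, miR-542, miR-450a and miR-450b, with 8 listed arms in the table, all of which passed the filter. Their log2 fold changes had a median of -0.75, from -1.79 to 0.22, against -0.05 over all tested miRNAs. None had an adjusted p under 0.05 in edgeR's quasi-likelihood test, DESeq2 or limma-voom. At an unadjusted p under 0.05 each tool gave 3, against 38 of 404 tested miRNAs in edgeR's test, 50 in DESeq2 and 50 in limma-voom. In edgeR's test the 3 were miR-351-5p, miR-351-3p and miR-450b-3p, all with a fold change over 2 and lower in R-exo. These conditions were met by 9.41% of all tested miRNAs in either direction. For 5 of the 8 every C-exo library was above every R-exo library, which held for 7.92% of all tested miRNAs. This count depended on the scaling. With RLE, library size alone or upper quartile scaling it was 2 of 8, namely miR-351-5p and miR-450b-3p, against 4.95% to 6.44% of all tested miRNAs.

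miR-351-5p, an arm with a seed of another family, had 1239, 431 and 327 CPM in the C-exo libraries, against 184, 206 and 187 CPM in the R-exo libraries. All 3 control libraries were above the R-exo libraries, C-exo replicate 1 most of all. Its log2 fold change was -1.79 ± 0.57 (SE, adjusted p of 0.46 by that edgeR test), with an exact permutation p of 0.1. Without C-exo replicate 1 the log2 fold change was -1.06, and that of miR-351-3p was -0.77. The other neighbours with no overlap in TMM-scaled CPM were miR-351-3p, miR-450a-5p, miR-450b-5p and miR-450b-3p, with log2 fold changes of -1.46, -0.79, -0.71 and -1.12. miR-450b-5p had 612, 750 and 446 CPM in the C-exo libraries, against 359, 311 and 433 CPM in the R-exo libraries, so that the gap between C-exo replicate 3 and R-exo replicate 3 was narrow. miR-450a-5p had 324 CPM in C-exo replicate 3 and 319.6 in R-exo replicate 3. miR-542-3p had a log2 fold change of 0.11 ± 0.46 (SE), miR-542-5p -0.44 ± 0.72 (SE) and miR-450a-3p 0.22 ± 0.76 (SE). That of miR-542-5p was -0.97 without C-exo replicate 1 and -0.03 without C-exo replicate 2. In the fit without C-exo replicate 3, miR-351-5p and miR-351-3p were called lower in R-exo (log2 fold change -2.11 and -1.77, adjusted p = 0.0073 and 0.016), while rno-miR-503-5p of the same cluster was called higher.

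**Figure D4:**
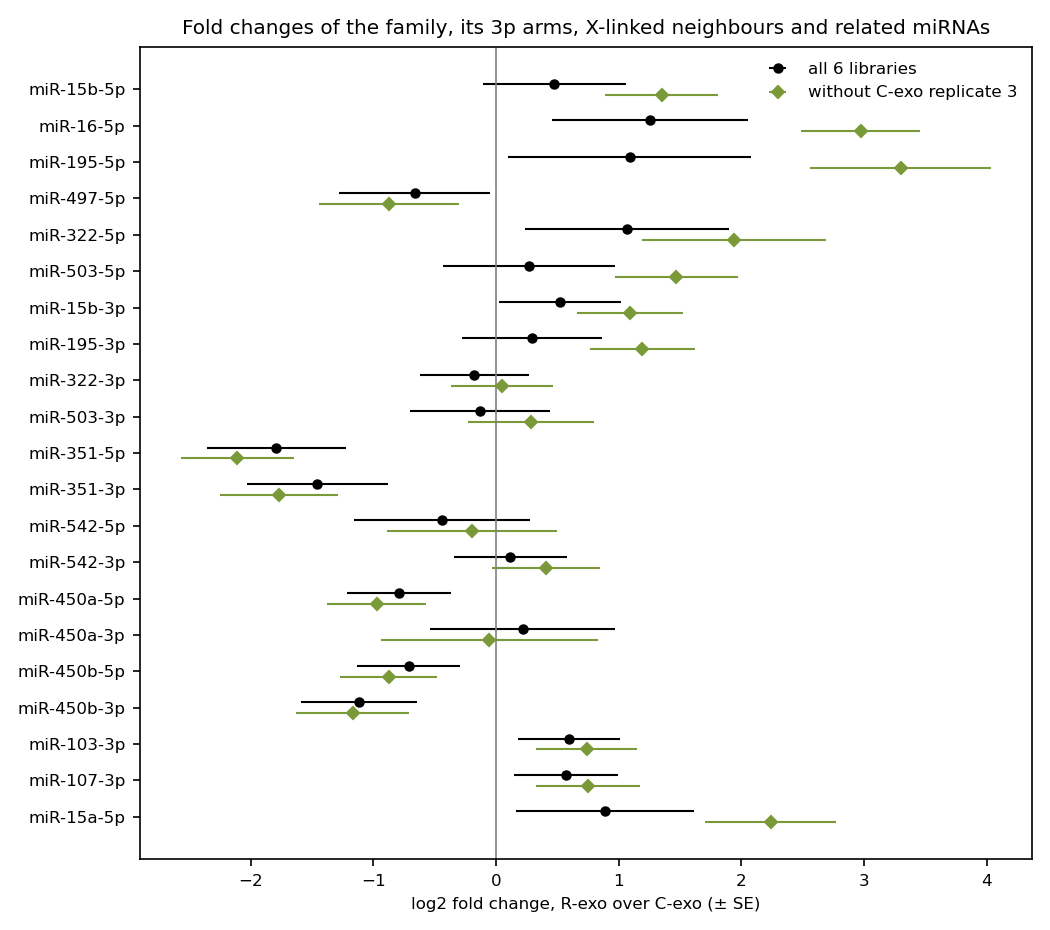
log2 fold change of R-exo over C-exo (points, with bars of 1 standard error) from edgeR's quasi-likelihood fit with all 6 libraries (black circles) and without C-exo replicate 3 (green diamonds). rno-miR-16-5p goes from 1.25 to 2.97 and rno-miR-195-5p from 1.09 to 3.30 when that library is left out, while miR-351-5p is at -1.79 and -2.11.

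miR-103-3p and miR-107-3p, which are known for links to metabolism, begin with the bases that the family has at positions 2 to 8, shifted by a base, and are shown with this run in capitals.
miR-103-3p: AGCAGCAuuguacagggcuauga
miR-107-3p: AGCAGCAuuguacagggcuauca
miR-103-3p had 463, 445 and 589 CPM in the C-exo libraries, against 846, 845 and 567 CPM in the R-exo libraries, a log2 fold change of 0.59 ± 0.41 (SE, adjusted p of 0.51 by that edgeR test). That of miR-107-3p was 0.57 ± 0.42 (SE). C-exo replicate 3 held 1.30 times the miR-103-3p of the other control libraries, against 7.80 times for rno-miR-16-5p. The log2 ratio of rno-miR-16-5p to miR-103-3p was -2.36, -2.60 and 0.11 in C-exo and -0.98, 0.02 and 0.15 in R-exo (exact permutation p = 0.3). The C-exo replicates 1 and 2 were thus low in miR-16 relative to miR-103 as well.

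Because miR-16 is plentiful in blood cells, miRNAs of other sources are given beside it. The red cell list held miR-451-5p, miR-144-3p, miR-144-5p and miR-486. miR-451-5p, a well known red cell miRNA, had 2023, 2250 and 4600 CPM in the C-exo libraries, against 3165, 6239 and 2060 CPM in the R-exo libraries, with a log2 fold change of 0.37 ± 0.55 (SE), which ranged from -0.17 to 0.84 with single libraries left out. The log2 ratio of rno-miR-16-5p to miR-451-5p was -4.49, -4.94 and -2.85 in C-exo and -2.89, -2.87 and -1.71 in R-exo (exact permutation p = 0.3), so that C-exo replicates 1 and 2 also had the least miR-16 for their miR-451. miR-144-3p and miR-144-5p were higher in every R-exo library than in any C-exo library (log2 fold changes 1.07 and 1.63). Their adjusted p was 0.46 each by that edgeR test, and 12.9% of all tested miRNAs had no overlap in either direction. miR-486 had a log2 fold change of -1.07, which ranged from -1.35 to -0.56 with single libraries left out. The summed CPM of the red cell list, mostly miR-486, was 69273 to 198074 in C-exo and 44536 to 74959 in R-exo.

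The summed CPM of 4 platelet and leukocyte miRNAs (miR-223-3p, miR-142-3p, miR-142-5p and miR-150-5p) was 3553 to 21385 in C-exo and 11448 to 26859 in R-exo, with the high control value in C-exo replicate 3. Most of that value was miR-142-5p, at 18749 CPM. Relative to the mean of the other controls, C-exo replicate 3 held 7.87 times as much miR-142-5p and 2.14 times as much miR-150-5p, but 0.844 times as much miR-142-3p and 0.727 times as much miR-223-3p. The log2 fold change was above 0 for 3 of these 4, with a median of 0.45. With single libraries left out, that of miR-150-5p, 0.03, ranged from -0.29 to 0.50 and that of miR-142-5p, 0.86, from 0.27 to 2.59. The summed CPM of the 2 endothelial arms of miR-126a was 4722 to 16771 and 20585 to 30331, almost all of it miR-126a-3p. miR-126a-5p overlapped between the groups, with 90.8, 189 and 888 CPM in the C-exo libraries, against 530, 750 and 315 CPM in the R-exo libraries. The summed CPM of 6 striated muscle miRNAs was 2149 to 9815 in C-exo and 1801 to 5949 in R-exo, and the liver miRNA miR-122-5p had 28293 to 67045 and 28768 to 35621 CPM. Both were highest in C-exo replicate 3. Among the muscle miRNAs that library held 9.78 times the miR-1-3p and 5.50 times the miR-206-3p of the other controls, but 0.766 times the miR-133a-3p and 0.317 times the miR-133b-3p. Every miRNA of these lists had reads, and all passed the filter. With all 6 libraries none of them had an adjusted p under 0.05, and the unadjusted p was under 0.05 for 2 of the red cell list, 1 of the endothelial list and 0 of the others, against 38 of 404 tested miRNAs (edgeR's quasi-likelihood test). DESeq2, limma-voom and edgeR's exact test also gave 0 by adjusted p. At an unadjusted p under 0.05, DESeq2 and limma-voom each gave 1 of the platelet and leukocyte list, and limma-voom and edgeR's exact test each gave 1 of the muscle list. Over all 404 tested miRNAs such a p was found for 50 in DESeq2, 50 in limma-voom and 45 in edgeR's exact test. In the fit without C-exo replicate 3, in which 4 members were called, edgeR's quasi-likelihood test also called miR-142-5p (adjusted p = 0.0053), miR-126a-3p (0.0058), miR-144-5p (0.0080), miR-126a-5p (0.014) and miR-208a-3p (0.043) higher in R-exo and miR-486 (0.016) lower. The part of these sources in the family's differences was not tested.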

How the data were processed

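The authors deposited raw read counts per mature miRNA for 6 Illumina small RNA libraries, not normalized. The submitters' processing notes name bcl2fastq, BWA and rn6, with no role or version. The miRNA database and the rules for mismatches and multiple matches are not given in the sources used here. All counts were even for both arms of miR-322, miR-503, miR-351 and miR-450b. All were multiples of 3 for both arms of miR-542 and for miR-16-3p. Groups and replicate numbers came from the labels.

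From these counts, miRNAs were kept with filterByExpr by group (minimum count 10, minimum total 15), which left 404 of the 598 with any count. TMM factors were applied and the groups were compared by edgeR 4.0.16 (R 4.3.3; glmQLFit, glmQLFTest, condition only), with Benjamini-Hochberg adjustment over all tested miRNAs. Standard errors came from the fold change and its F statistic. log2 CPM had a prior count of 2. The 6 members, the lists (3p arms, cluster neighbours, miRNAs with the shifted seed, sources) and the rule for the most alike miRNAs (3 highest Pearson r) were chosen with earlier results of these data known. The procedure was tested on simulated counts. Sequences came from RefSeq GRCr8, which held 686 of the 763 miRNAs, and no coordinates are given because the authors' build was another. Alternatives used DESeq2 1.42.0 and limma 3.58.1. Figures used matplotlib 3.10.9.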

Additional observations from a re-analysis of the deposited data

How the results depend on the processing

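No member had an adjusted p under 0.05 in any of the 11 alternatives that kept all 6 libraries (RLE, library size only or upper quartile scaling, no filter, at least 10 counts in every library, DESeq2, edgeR's exact test, limma-voom, a robust fit, TMM without the 10 most abundant miRNAs, replicate block). In these alternatives the direction of each member was the same as in the report. The log2 fold change lay between 1.25 and 1.96 for rno-miR-16-5p and between 1.09 and 2.08 for rno-miR-195-5p, highest with the block. With at least 10 counts in every library, rno-miR-195-5p and rno-miR-322-5p were not tested. The number of members that met the criterion of the study was 0 in the report, 1 with no filter, 1 with limma-voom and 2 with the replicate block. Over the whole table such miRNAs numbered 38 of 404 in the report, 63 of 598 with no filter, 49 of 404 with limma-voom and 38 of 404 with the block. The deviations of libraries with the same number correlated at 0.33, -0.28 and 0.28, and not every library correlated best with its own number, so the numbers were not taken to pair the samples.

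When single libraries were left out, the number of members called ranged from 0 to 4 and the number that met the criterion of the study from 0 to 5, the highest without C-exo replicate 3, where 182 of 422 tested miRNAs met it. The log2 fold change ranged from 0.18 to 1.35 for rno-miR-15b-5p, 0.85 to 2.97 for rno-miR-16-5p, 0.58 to 3.30 for rno-miR-195-5p, -1.14 to 0.23 for rno-miR-497-5p, 0.53 to 1.94 for rno-miR-322-5p and -0.14 to 1.47 for rno-miR-503-5p. Among the other miRNAs that changed sign in such fits, it ranged from -0.066 to 1.19 for miR-195-3p, -0.39 to 0.12 for miR-322-3p, -0.49 to 0.32 for miR-503-3p, -0.24 to 0.41 for miR-542-3p, -0.055 to 0.77 for miR-450a-3p and -0.17 to 0.84 for miR-451-5p. miR-503-3p was also at 0.029 with library size only. The log2 ratio of miR-15b-5p to miR-15b-3p differed by between -0.038 and 0.25. The number of cluster neighbours with every C-exo library higher, 5 of 8 with TMM, was 2 with the other 3 scalings. The use of these scalings for that count, the alternatives for the miRNAs outside the 6 members and the overlap of groups without C-exo replicate 3 were chosen after seeing the data. The cause of these changes was not tested.

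With 3 libraries a group, no exact permutation test can go below 0.1. The lowest members rest on few reads, with counts down to 2.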
